A study of Oryctolagus cuniculus with 8 samples.

Results

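Growth factor and morphogen genes were followed in forebrains of preterm New Zealand rabbits. They were found by a search of the annotation printed on an Agilent rabbit array. A probe was taken when its description held any of 14 search terms, such as insulin-like growth factor, bone morphogenetic protein, wingless-type, frizzled, notch, hedgehog or neurotrophic. The search returned 208 probes for 100 genes or transcripts, out of 43603 probes for 23396 genes or transcripts on the array, and 46 of the 100 were bright enough to be tested. By matched term, the 100 divide into 20 fibroblast growth factor (FGF), 13 transforming growth factor (TGF), 12 insulin-like growth factor (IGF), 11 bone morphogenetic protein (BMP), 11 WNT, 6 frizzled, 6 hedgehog, 6 neurotrophic, 4 NOTCH, 4 platelet-derived growth factor (PDGF), 3 vascular endothelial growth factor (VEGF), 2 neuregulin and 2 SMAD genes. The term for the inhibitors of DNA binding matched no probe. The wording of a description decides membership, so the list also holds genes outside these pathways, such as SBNO1 (strawberry notch homologue) and the regulator genes TBRG1 and TBRG4.

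All animals were taken by Caesarean section on gestational day 29, where term is day 32, and the forebrain was collected on postnatal day 14. In the first group, 4 pups had received a high dose of the synthetic glucocorticoid dexamethasone as intramuscular doses of 0.25 mg/kg, 2 daily, over no more than 5 days. The other group was 4 pups given the saline vehicle. All pups of both groups were preterm and formula-fed, and the design text calls the 4 samples of a group biological replicates. The series concerns glucocorticoids given after birth and myelination.

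These families are secreted signals with their receptors, carriers and inhibitors. IGF1 acts through the receptor tyrosine kinase IGF1R and supports the growth of neural cells and oligodendrocytes, and IGF-binding proteins hold it in the extracellular space. FGF, PDGF, VEGF and neuregulin ligands also signal through receptor tyrosine kinases. BMP and TGF-beta ligands bind serine/threonine kinase receptors that phosphorylate SMAD proteins. WNT ligands bind frizzled receptors, hedgehog ligands bind patched, and NOTCH receptors are cleaved on contact with a neighbouring cell's ligand. BMP, WNT and NOTCH signals are known to hold oligodendrocyte precursors back from maturing, and IGF1 to favour myelination.

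The probes are short stretches of the transcripts, and several genes carry sets of probes shifted by a few bases. Probes of IGF1, BMP2, FGF13 and WNT3, the members with the smallest p-values, and of BMP4 are given as the array files list them, with capitals for the bases that both probes of a pair hold in common. The pairs for IGF1, BMP2 and BMP4 show how little neighbouring probes differ, while those for FGF13 and WNT3 share at most a few bases at their ends and are left in lower case. The gene values below rest on the brightest probe, which for IGF1 and BMP4 is another of the same overlapping set, at positions 346 and 1153.
IGF1 probe at transcript position 343: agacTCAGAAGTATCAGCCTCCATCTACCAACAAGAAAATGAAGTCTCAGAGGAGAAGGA
IGF1 probe at transcript position 347: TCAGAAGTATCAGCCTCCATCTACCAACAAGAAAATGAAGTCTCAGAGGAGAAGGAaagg
BMP2 probe at transcript position 1192: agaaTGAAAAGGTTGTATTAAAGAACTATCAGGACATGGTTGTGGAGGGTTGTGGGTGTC
BMP2 probe at transcript position 1196: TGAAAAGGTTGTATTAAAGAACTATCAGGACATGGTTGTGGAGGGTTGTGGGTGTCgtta
BMP4 probe at transcript position 1149: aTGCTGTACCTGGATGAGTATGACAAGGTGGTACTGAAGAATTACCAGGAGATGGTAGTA
BMP4 probe at transcript position 1150: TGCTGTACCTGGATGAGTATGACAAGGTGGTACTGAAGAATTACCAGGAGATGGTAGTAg
FGF13 probe at transcript position 375: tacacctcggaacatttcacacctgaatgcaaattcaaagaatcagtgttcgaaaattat
FGF13 probe at transcript position 429: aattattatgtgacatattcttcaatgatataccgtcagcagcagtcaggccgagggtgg
FGF13 probe at transcript position 504: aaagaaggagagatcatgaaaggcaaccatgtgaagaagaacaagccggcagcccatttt
WNT3 probe at transcript position 863: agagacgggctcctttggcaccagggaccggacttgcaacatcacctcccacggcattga
WNT3 probe at transcript position 1008: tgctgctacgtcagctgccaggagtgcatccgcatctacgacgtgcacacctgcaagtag

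In the build oryCun2 that the file headers name, the IGF1 probes lie on the minus strand at chr4:81694144-81695728 and chr4:81679800-81695724. Both spans are longer than the probes' 60 bases, so each probe covers a junction between exons. The BMP2 probes lie at chr4:29449452-29449511 and chr4:29449448-29449507 and the BMP4 probes at chr17:72720968-72721027 and chr17:72720967-72721026, all on the minus strand. The WNT3 probes lie on the plus strand at chr19:45863261-45863320 and chr19:45863406-45863462. The files give the FGF13 probes no position.

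RNA was read on 4 arrays, each with 2 samples of the same group, odd-numbered samples in Cy3 and even-numbered samples in Cy5. Slide 2 and scan 2 held both dexamethasone arrays, and slide 1 and scan 1 both saline arrays. Slide, scan and treatment therefore cannot be told apart in any difference given here. The share of the 208 member probes well above background was 45.7%, 70.2%, 40.4% and 65.9% in dexamethasone 1 to 4, and 33.2%, 50.5%, 34.6% and 61.1% in saline 1 to 4. It was higher in dexamethasone within each dye, as it was over all probes on the array, where it ran from 47.7% to 64.3% with dexamethasone and from 39.1% to 59.7% with saline. Of the 13 neuron markers listed, 8 were on the array and each was above background in at least 1 sample. In bulk tissue such as this, fewer cells of a type and less RNA per cell cannot be told apart.

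None of the 46 tested members passed an adjusted p of 0.05 in the comparison of dexamethasone with saline, and the smallest adjusted p was 0.339 (limma, Benjamini-Hochberg over 10782 genes). Over all genes tested, 7 passed, or 0.0649%. At an unadjusted p under 0.05 there were 4 members, or 8.70%, namely WNT3, FGF13 and BMP2 on the higher side with dexamethasone and IGF1 on the lower. Over all genes tested that share was 13.9%, 6.36% higher and 7.59% lower, so the members' share was not above it. The calls moved with the processing. Normexp values (background-corrected intensities) were also scaled to each sample's 75th percentile, in place of the normalisation within and between arrays. Then 13 members passed the adjusted test, all lower, where 2213 of all genes did. Without the array of saline 1 and 2, 6 members passed, where 2181 of all genes did. In that fit all saline values come from a single array. The estimated correlation of samples on an array was -0.315, which lowers the SE, so those passes are not read as calls. Groups without any overlap in values were found for 4 members, WNT3, FGF13, FGF10 and the neuregulin 1 transcript, all higher with dexamethasone. The filter on dim probes admitted the neuregulin 1 transcript and FGF10 mainly through the dexamethasone group, with 4 and 3 dexamethasone samples and 1 saline sample above background, so nothing is read from the shared direction. The 4 are 8.70% of the tested members, against 13.5% of all genes tested, of which 5.91% were higher and 7.57% lower.

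The tested members were divided about evenly around 0, with 24 differences above and 22 below. Their median log2 difference was 0.02, the same as the 0.02 of all genes tested, and the median size of a difference was 0.16 in the members and 0.15 in all genes. Single differences ran from -0.39 for the notch 4 transcript to 0.63 for IGFBP6. The median SE was 0.149 in the members and 0.132 in all genes. Of the 43 members with values for both groups in both dyes, 29 had the same sign in Cy3 and Cy5, 17 higher and 12 lower with dexamethasone.

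**Figure D1:**
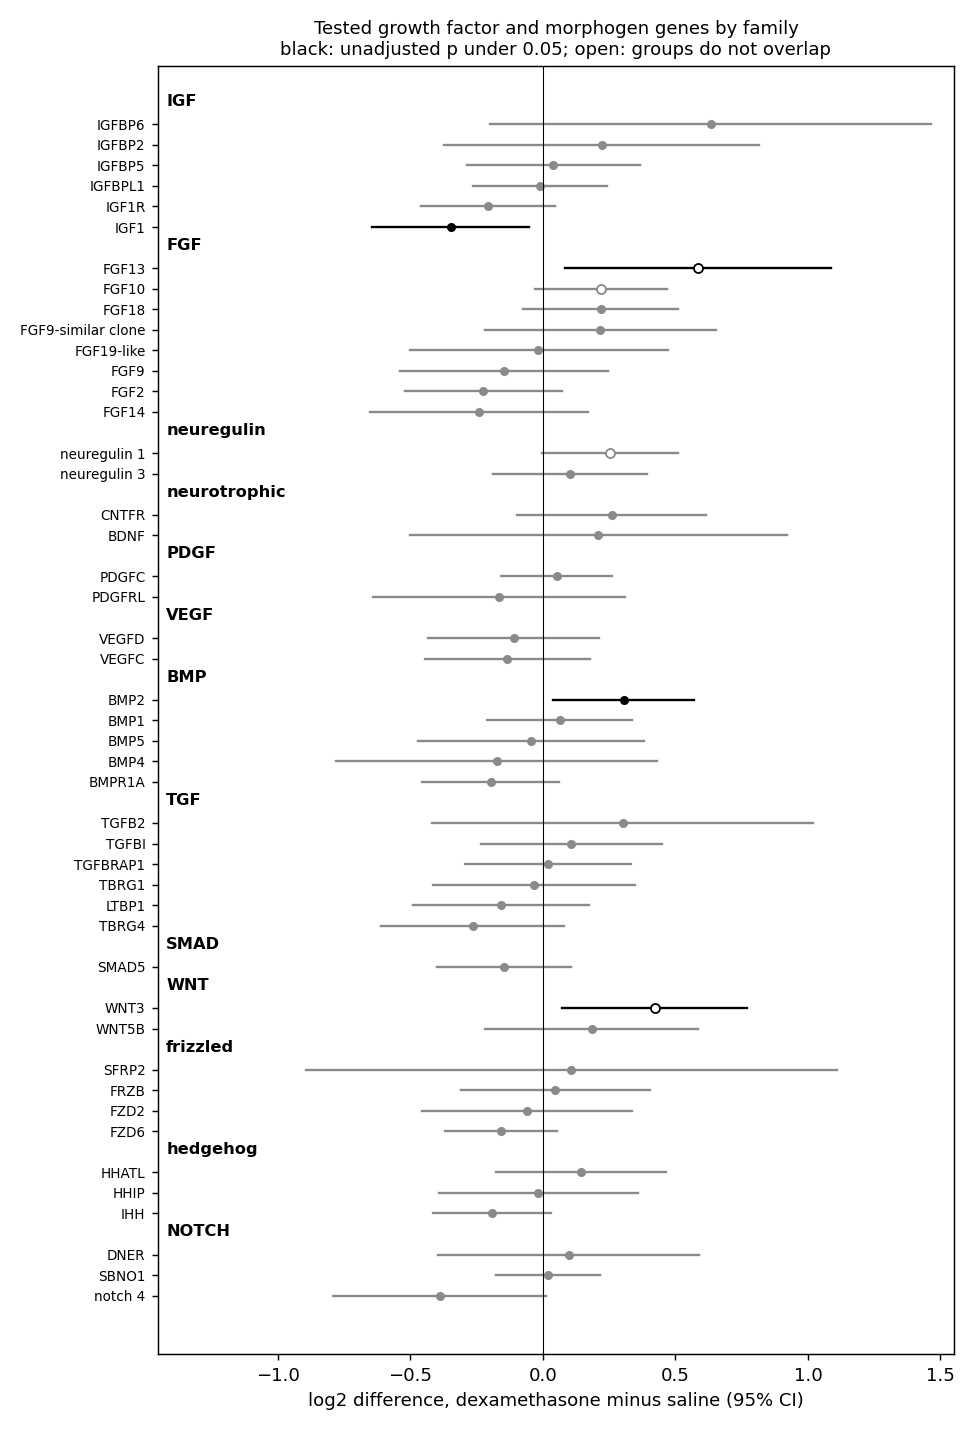
Log2 difference between dexamethasone and saline for the 46 tested members, grouped by family, with 95% confidence intervals from limma. The intervals of 4 genes, drawn in black, leave out 0; open points mark the 4 genes whose groups did not overlap.

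IGF1, the ligand of the IGF family, had the smallest p among members on the lower side. Its log2 normalised intensity was 8.53, 8.51, 8.59 and 8.39 in dexamethasone 1 to 4, and 8.58, 8.97, 8.91 and 8.94 in saline 1 to 4. Saline 1 lay among the dexamethasone values and the other saline samples lay above all of them. IGF1 was dim, with this probe well above background in 4 dexamethasone and 3 saline samples, and the probe at position 343 in 2 samples of each group. The log2 difference was -0.35 (SE 0.13, limma adjusted p = 0.339), with means of 8.50 ± 0.08 in dexamethasone and 8.85 ± 0.18 in saline (SD, n = 4 each). It was -0.19 in Cy3 and -0.51 in Cy5. Its 5 overlapping probes, 2 of which are printed above, all had a lower mean with dexamethasone, by log2 differences from -0.35 to -0.23. They share nearly all of their bases and are not independent measurements.

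IGF1R, the receptor of IGF1, had log2 intensities of 8.997 to 9.232 with dexamethasone and 9.19 to 9.39 with saline. The groups overlapped, with a log2 difference of -0.21 (SE 0.11, limma adjusted p = 0.412), and the difference was below 0 in Cy3 and in Cy5. IGFBP6, a binding protein that prefers IGF2, had the largest difference of any tested member when every sample was used. Its values were 10.47, 9.87, 10.35 and 11.40 in dexamethasone 1 to 4, and 9.46, 9.68, 10.23 and 10.17 in saline 1 to 4. Dexamethasone 4 stood highest and dexamethasone 2 lay within the saline range. With an SD of 0.64 in dexamethasone and 0.38 in saline, the log2 difference of 0.63 had an SE of 0.36 (limma adjusted p = 0.434). It was 0.32 without dexamethasone 4, 0.28 without the array of dexamethasone 3 and 4 and 0.986 without that of dexamethasone 1 and 2. It was 0.32 without the array of saline 1 and 2.

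IGFBP2, a binding protein abundant in developing brain, ran from 12.12 to 12.81 with dexamethasone and from 11.81 to 12.67 with saline. The binding protein IGFBP5 ran from 10.40 to 10.88 with dexamethasone and from 10.23 to 10.83 with saline, and IGFBPL1, a related secreted protein, from 9.08 to 9.37 with dexamethasone and from 9.09 to 9.31 with saline. The ranges of all 3 overlapped almost fully. Outside the description search, 5 of 17 listed genes of IGF and insulin signalling were tested and none passed the adjusted test or an unadjusted p under 0.05 (limma). Of these, the transcription factor FOXO3 and the kinase subunit PIK3R1 had the smallest p-values, with log2 differences of 0.19 (SE 0.16) and 0.10 (SE 0.18).

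Among the FGF genes, FGF13 had the largest difference. FGF13, FGF12 and FGF14 belong to the FGF homologous factors, which stay inside the cell and bind voltage-gated sodium channels. The values of FGF13 were 11.99, 11.63, 11.12 and 11.22 in dexamethasone 1 to 4, and 11.01, 11.05, 10.60 and 10.96 in saline 1 to 4. All dexamethasone samples lay above all saline samples, and dexamethasone 1 and 2, which share an array, lay above the rest. The log2 difference was 0.59 (SE 0.22, limma adjusted p = 0.339), with 0.75 in Cy3 and 0.42 in Cy5. Without the array of dexamethasone 1 and 2 it was 0.27, and without that of dexamethasone 3 and 4 it was 0.91. The 3 FGF13 probes printed above had differences from 0.32 to 0.59, all above 0.

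The other FGF homologous factors lay on the lower side. FGF14 had log2 intensities of 9.05 to 9.52 with dexamethasone and 9.12 to 9.70 with saline, with a log2 difference of -0.24 (SE 0.18, limma adjusted p = 0.529). Its difference was 0.02 in Cy3 and -0.51 in Cy5, so it rested on the Cy5 samples. FGF12 was left out of the test across genes because its brightest probe had too few values, and 2 of its other probes could be fitted. Their differences were -0.27 (SE 0.13) and -0.25 (SE 0.12).

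FGF10, a secreted ligand of FGFR2, was dim. Its values were 8.43, 8.27, 8.12 and 8.13 in dexamethasone 1 to 4, and 7.92, 7.998, 8.07 and 8.08 in saline 1 to 4. The groups did not overlap, but dexamethasone 3 and 4 lay within 0.06 of saline 3 and 4, and the probe was well above background in 3 dexamethasone samples and 1 saline sample. The log2 difference was 0.22 (SE 0.11, limma adjusted p = 0.384). It lay below 0, at -1.26, with normexp values scaled to the 75th percentile, a scaling under which the median of all genes moved to -0.30, and also with no filter on dim probes.

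FGF2, a mitogen of oligodendrocyte precursors, had 8.21 to 8.32 with dexamethasone, against 8.25, 8.34, 8.68 and 8.70 in saline 1 to 4. The log2 difference of -0.22 (SE 0.13, limma adjusted p = 0.434) rested on saline 3 and 4, which share an array. FGF18, a secreted ligand known from bone and lung, had 8.69 to 9.11 with dexamethasone and 8.52 to 8.78 with saline, a log2 difference of 0.22 (SE 0.13, limma adjusted p = 0.436) that was 0.37 in Cy3 and 0.06 in Cy5, and below 0 with normexp values scaled to the 75th percentile. FGF9, made by neurons, had overlapping ranges of 10.86 to 11.52 with dexamethasone and 11.11 to 11.24 with saline, and its 4 fitted probes had differences from -0.42 to -0.03. A clone annotated as similar to human FGF9 (AF013269) had a difference of 0.22 (SE 0.19), and its 5 probes ran from -0.25 to 0.55, 4 above 0 and 1 below. The clone's probes lie on the minus strand at chr8:43046570-43046633, close to those of FGF9 at chr8:43047136-43047196 on the same strand. The clone and FGF9 are counted as separate members but may be the same gene, and their differences had opposite signs. The FGF19-like transcript (ENSOCUT00000003867) had a difference of -0.02 (SE 0.21).

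Of 23 listed FGF and EGF pathway genes outside the search, 9 were tested. None passed the adjusted test, and 1 had an unadjusted p under 0.05 (limma), namely KL, or 11.1% against 13.9% of all genes tested. KL encodes klotho, a co-receptor for endocrine FGFs that the choroid plexus also makes. Its values were 11.49 to 11.86 with dexamethasone and 11.96 to 12.51 with saline, without overlap, and the log2 difference was -0.49 (SE 0.16, limma adjusted p = 0.314). DUSP6, a phosphatase induced by FGF signalling, had 8.36, 8.29, 8.59 and 8.19 in dexamethasone 1 to 4, and 8.53, 8.34, 10.69 and 10.01 in saline 1 to 4. Its difference of -1.04 (SE 0.49, limma adjusted p = 0.372) rested on saline 3 and 4, which share an array, while saline 1 and 2 lay within the dexamethasone range.

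The neuregulin 1 transcript (ENSOCUT00000005836) encodes a ligand of ERBB receptors on glia. It had 8.46, 8.55, 8.57 and 8.24 in dexamethasone 1 to 4, and 8.15, 8.21, 8.22 and 8.23 in saline 1 to 4. Dexamethasone 4 lay just above the highest saline value and the other dexamethasone samples lay clearly above. This gave a log2 difference of 0.25 (SE 0.11, limma adjusted p = 0.359), with 0.33 in Cy3 and 0.18 in Cy5. The probe was well above background in 4 dexamethasone samples and 1 saline sample, and with normexp values scaled to the 75th percentile the difference was -0.99. The second probe of this transcript, shifted by 1 base, had overlapping groups, with 8.29 to 8.48 with dexamethasone and 8.14 to 8.37 with saline, and a difference of 0.11 (SE 0.11). The neuregulin 3 transcript (ENSOCUT00000015023) had a difference of 0.10 (SE 0.13), which was below 0 without saline 3 and without the array of saline 3 and 4. The receptor ERBB4 had a difference of -0.10 (SE 0.09, limma adjusted p = 0.597).

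CNTFR, the receptor for ciliary neurotrophic factor, had 8.24 to 8.66 with dexamethasone and 7.97 to 8.50 with saline. It was well above background in 4 dexamethasone and 2 saline samples. Its log2 difference of 0.26 (SE 0.16, limma adjusted p = 0.445) was 0.42 in Cy3 and 0.10 in Cy5, and was below 0 with normexp values scaled to the 75th percentile. BDNF, a neurotrophin of neurons, had 10.38, 10.09, 9.81 and 10.84 in dexamethasone 1 to 4, and 9.70, 10.34 and 10.11 in saline 1, 3 and 4. Dexamethasone 4 was the highest value and the groups overlapped, with a difference of 0.21 (SE 0.30, limma adjusted p = 0.755). Of the 19 listed neurotrophin and GDNF family genes outside the search, 2 were tested. The shared receptor subunit IL6ST had a difference of 0.15 (SE 0.09) and the receptor GFRA2 of -0.12 (SE 0.09), and neither passed.

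PDGF and VEGF genes were few and close to 0. PDGFC, a ligand of PDGF receptors, had 8.23 to 8.40 with dexamethasone and 8.25 to 8.33 with saline, and was well above background in 2 samples of each group. PDGFRL, a receptor-like protein, had a difference of -0.16 (SE 0.21). VEGFC and VEGFD, which act on the lymphatic receptor FLT4, had differences of -0.13 (SE 0.14) and -0.11 (SE 0.14), and both were above 0 in Cy5 and below 0 in Cy3. VEGFC also had a mean over its kept probes of the opposite sign. Of the 14 listed genes of these pathways outside the search, 5 were tested and none passed. ANGPT2, an antagonist of the vessel receptor TEK, had a difference of 0.29 (SE 0.13, limma adjusted p = 0.359), and TEK itself one of 0.20 (SE 0.20).

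BMP2, a ligand that directs precursors towards astrocytes, was on the higher side. Its values were 9.87, 9.86, 10.00 and 10.17 in dexamethasone 1 to 4, and 9.60, 9.88, 9.60 and 9.59 in saline 1 to 4. Saline 2 lay just above dexamethasone 1 and 2, and the remaining saline samples lay below every dexamethasone sample. Dexamethasone exceeded saline by a log2 difference of 0.31 (SE 0.12, limma adjusted p = 0.342), with means of 9.97 ± 0.14 in dexamethasone and 9.67 ± 0.14 in saline (SD, n = 4 each). All 8 fitted BMP2 probes had a higher mean with dexamethasone, by 0.07 to 0.36. Of these, 5 lie within a few bases of each other at transcript positions 1189 to 1196, and the others at 1962, 2033 and 2073. Without the array of dexamethasone 3 and 4 the difference was 0.20, and without that of dexamethasone 1 and 2 it was 0.41.

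BMP4, a close relative of BMP2, showed how far neighbouring probes can part. The probe at position 1149 had 9.83, 9.46, 9.75 and 10.43 in dexamethasone 1 to 4, and 9.32, 9.73, 9.25 and 9.35 in saline 1 to 4, a difference of 0.45 (SE 0.23). The probe at position 1150, shifted by 1 base as printed above, had 9.29, 8.88, 9.10 and 9.97 in dexamethasone 1 to 4, and 9.11, 9.66, 9.96 and 10.13 in saline 1 to 4, a difference of -0.40 (SE 0.30). At both probes dexamethasone 4 was the highest dexamethasone sample and dexamethasone 2 the lowest. Saline 3 and 4, which share an array, lay below every dexamethasone sample at the first probe and among the highest samples at the second. The brightest BMP4 probe, at position 1153, gave a difference of -0.17 (SE 0.26, limma adjusted p = 0.764), so no direction can be given for BMP4. BMP7 could be fitted at 3 probes only, with differences from -0.15 to -0.10.

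BMP1, the procollagen protease that also frees BMP from its inhibitor chordin, had a difference of 0.06 (SE 0.12), and the ligand BMP5 had -0.05 (SE 0.19). BMPR1A, a type I BMP receptor, had 8.61 to 8.88 with dexamethasone and 8.83 to 9.09 with saline, a difference of -0.20 (SE 0.11, limma adjusted p = 0.434). SMAD5, a transducer of BMP signals, had 8.23 to 8.51 with dexamethasone and 8.30 to 8.63 with saline, a difference of -0.15 (SE 0.11, limma adjusted p = 0.531). It was well above background in 2 samples of each group. Receptor and transducer thus had differences below 0 that did not pass the test, in overlapping groups. For the receptor BMPR2, 4 dexamethasone samples had 13.72 to 13.99 and the 2 saline samples with a value had 13.45 and 13.53, and it was not tested.

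TGFB2, a TGF-beta ligand of neurons and glia, had 11.36, 12.05, 11.56 and 11.01 in dexamethasone 1 to 4, and 11.54, 11.22 and 10.89 in saline 1 to 3. The groups overlapped, with a difference of 0.30 (SE 0.31, limma adjusted p = 0.646), and its 2 probes had differences of 0.30 and 0.31. LTBP1, which binds latent TGF-beta in the matrix, had a difference of -0.16 (SE 0.14), and TGFBI, a matrix protein induced by TGF-beta, one of 0.11 (SE 0.15). The TGFBI probe was well above background in 4 dexamethasone samples and 1 saline sample. TBRG4, a mitochondrial RNA-binding protein despite its name, had 10.66 to 11.11 with dexamethasone and 10.99 to 11.36 with saline, a difference of -0.26 (SE 0.15, limma adjusted p = 0.433). That sign turned with the processed signals and with normexp values, each scaled to the 75th percentile.

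Of 33 listed BMP, TGF-beta and activin genes outside the search, 12 were tested. None passed the adjusted test, and 2 had an unadjusted p under 0.05 (limma), both on the lower side. That is 16.7% of the list, against 13.9% of all genes tested. One of them was THBS1, thrombospondin 1, which activates latent TGF-beta. It had 9.91 to 10.21 with dexamethasone and 10.23 to 10.65 with saline. Its groups did not overlap, and the log2 difference was -0.42 (SE 0.12, limma adjusted p = 0.304).

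**Figure D2:**
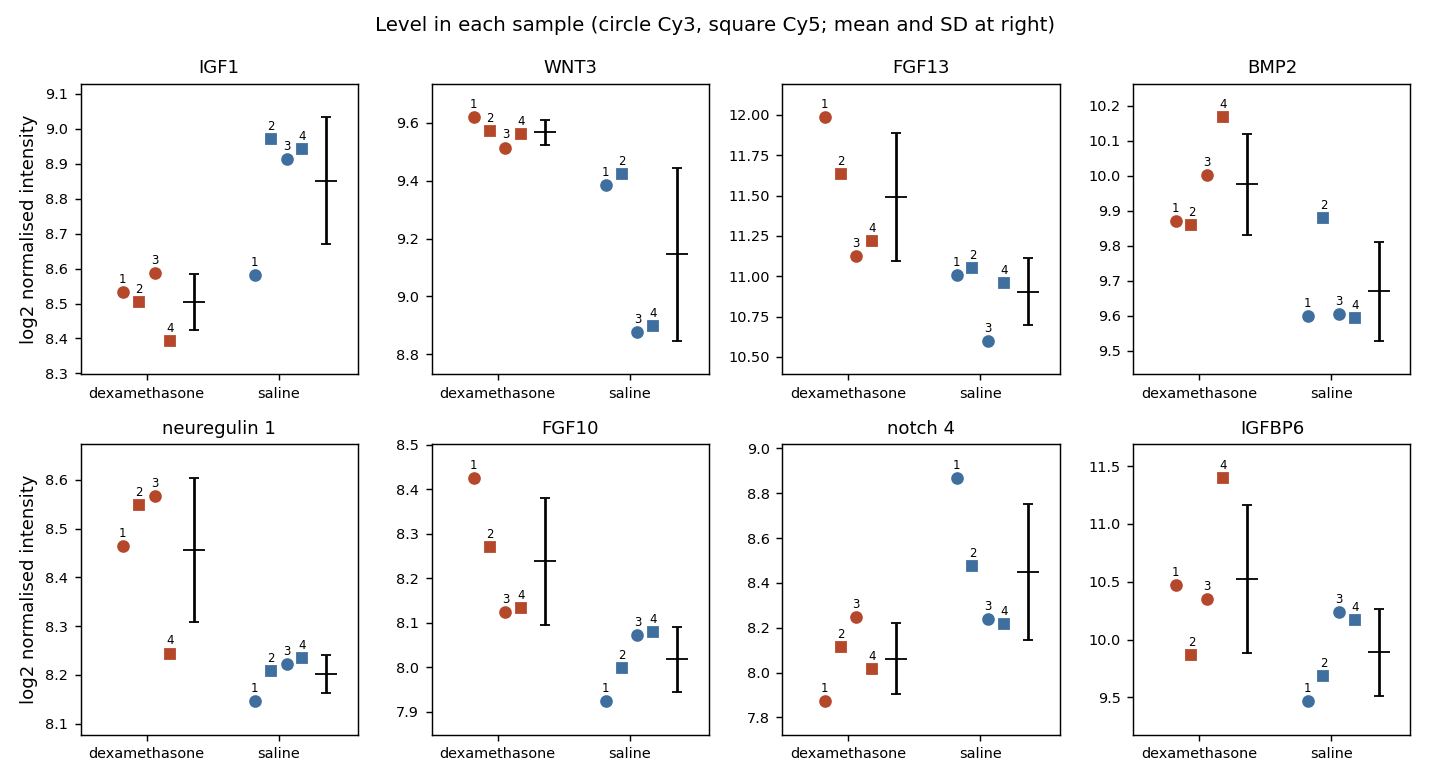
Log2 normalised intensity in each sample for 8 members, dexamethasone left of saline, with circles for Cy3, squares for Cy5 and the sample number above each point; the bar gives the mean and SD (n = 4). Saline 1 for IGF1 and saline 2 for BMP2 sit apart from the other saline samples, and dexamethasone 4 stands highest for IGFBP6.

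WNT3, a ligand of the canonical WNT pathway, had the smallest p of any tested member. Its values were 9.62, 9.57, 9.52 and 9.56 in dexamethasone 1 to 4, and 9.38, 9.42, 8.88 and 8.90 in saline 1 to 4. Dexamethasone samples lay close together and above all saline samples, and the saline samples parted by array. The log2 difference was 0.42 (SE 0.15, 1.34-fold, limma adjusted p = 0.339), with means of 9.57 ± 0.04 in dexamethasone and 9.15 ± 0.30 in saline (SD, n = 4 each). It was 0.16 without the array of saline 3 and 4, and 0.68 without that of saline 1 and 2. The second WNT3 probe, at position 863, had a difference of 0.06 (SE 0.09), and its mean with the first gave 0.24 (SE 0.11). WNT5B, a ligand of non-canonical signalling, had 9.30 to 9.91 with dexamethasone and 9.20 to 9.49 with saline. Its difference was 0.18 (SE 0.18), and was -0.03 with normexp values scaled to the 75th percentile.

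The frizzled receptors FZD2 and FZD6 had differences of -0.06 (SE 0.17) and -0.16 (SE 0.09), and the sign for FZD2 turned in 7 of 26 alternatives, among them 3 scalings. FZD6 was dim, with 8.16 to 8.35 with dexamethasone and 8.32 to 8.44 with saline, and was well above background in 2 samples of each group. FRZB and SFRP2 are secreted relatives of frizzled that bind WNT ligands. FRZB had a difference of 0.05 (SE 0.16), and its 6 probes ran from -0.38 to 0.34. SFRP2 had a difference of 0.11 (SE 0.44), with all 6 probes above 0 but none past an unadjusted p of 0.05 (limma).

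Of 38 listed WNT pathway genes outside the search, 16 were tested. None passed the adjusted test, 2 had an unadjusted p under 0.05 (limma), and for 3 the groups did not overlap, all lower with dexamethasone. These are 12.5% and 18.8% of the list, against 13.9% and 13.5% of all genes tested, and 10 of the 16 differences were above 0. LRP5, a co-receptor of frizzled, had 8.38 to 8.62 with dexamethasone and 8.635 to 8.998 with saline, a difference of -0.36 (SE 0.10, limma adjusted p = 0.287). LGR6, a receptor for R-spondins, had 8.55, 8.71, 8.55 and 8.62 in dexamethasone 1 to 4, and 9.58, 9.09, 8.88 and 8.83 in saline 1 to 4, a difference of -0.49 (SE 0.18, limma adjusted p = 0.339). RSPO1, an R-spondin, had 8.31 to 8.60 with dexamethasone and 8.67 to 9.50 with saline, a difference of -0.48 (SE 0.21, limma adjusted p = 0.362). For LGR6 and RSPO1 saline 1 was the highest sample. LRP6, the other co-receptor, had a difference of 0.29 (SE 0.19), and the transducer CTNNB1 (beta-catenin) one of 0.65 (SE 0.35), with overlapping groups.

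Among hedgehog genes, the ligand IHH had 8.52 to 8.64 with dexamethasone and 8.64 to 8.87 with saline. Saline 2 overlapped the dexamethasone samples and the other saline samples lay above them, and the difference was -0.19 (SE 0.10, limma adjusted p = 0.397). HHIP, a decoy receptor, had a difference of -0.02 (SE 0.16). HHATL, a relative of the enzyme that adds palmitate to hedgehog, had 0.15 (SE 0.14), with a sign that turned with normexp values scaled to the 75th percentile. Of 13 listed genes outside the search, 3 were tested and none passed. DISP1, which releases hedgehog from cells, had a difference of 0.24 (SE 0.16), and the transcription factor GLI3 one of 0.16 (SE 0.16).

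The notch 4 transcript (ENSOCUT00000016455), a NOTCH receptor known from vessels, had the lowest difference of any tested member when every sample was used. Its values were 7.87, 8.11, 8.25 and 8.02 in dexamethasone 1 to 4, and 8.87, 8.47, 8.24 and 8.22 in saline 1 to 4. Saline 1 was the highest, and saline 3 and 4 lay within the dexamethasone range. The log2 difference was -0.39 (SE 0.18, limma adjusted p = 0.364), and the probe was well above background in 2 dexamethasone and 3 saline samples. The difference was -0.24 without saline 1, -0.17 without the array of saline 1 and 2 and -0.61 without that of saline 3 and 4. DNER, a neuronal NOTCH ligand, had 8.58 to 9.46 with dexamethasone and 8.65 to 9.06 with saline. Its difference was 0.10 (SE 0.22) and turned below 0 in 4 of 25 alternatives, 1 of them a scaling. SBNO1 had a difference of 0.02 (SE 0.09), while its other probe had 0.24 (SE 0.11), with 8.335 to 8.618 in dexamethasone samples and 8.136 to 8.333 in saline samples, just without overlap.

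Of 31 listed NOTCH pathway genes outside the search, 14 were tested. None passed the adjusted test, and 2 had an unadjusted p under 0.05 (limma), 1 in each direction and both without overlap, or 14.3% against 13.9% of all genes tested. HEYL, a transcriptional repressor induced by NOTCH, had 8.37 to 8.50 with dexamethasone and 8.59 to 8.91 with saline, a difference of -0.30 (SE 0.10, limma adjusted p = 0.321). PSENEN, a subunit of the gamma-secretase that cleaves NOTCH, had 12.42 to 12.68 with dexamethasone and 12.24 to 12.31 with saline, a difference of 0.29 (SE 0.10, limma adjusted p = 0.321). The related targets HEY1, HEY2 and HES1 had differences of 0.28 (SE 0.14), 0.06 (SE 0.13) and 0.05 (SE 0.18), so the targets measured did not share a direction.

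**Figure D3:**
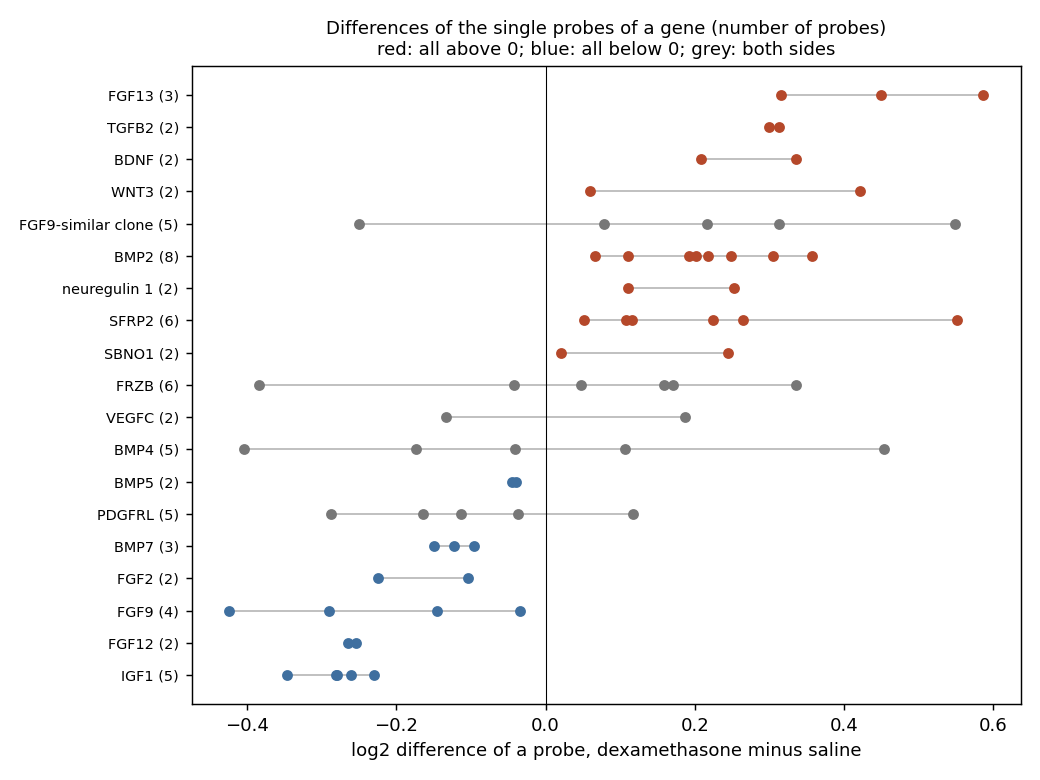
Log2 difference of every fitted probe for the 19 member genes with at least 2 fitted probes. In 14 genes all probes lie on the same side of 0, 8 above and 6 below, while the probes of BMP4, FRZB, PDGFRL, VEGFC and the FGF9-similar clone lie on both sides.

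The agreement among probes set a scale for reading single-gene differences. Over the 19 genes with at least 2 fitted probes, the median range of differences between probes of a gene was 0.27. That is larger than the median size of a member's difference. Probes of a gene often overlap and are read on the same arrays, so their agreement in sign is not replication.

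Variation within the dexamethasone group was larger than within the saline group for 33 of 46 tested members, or 71.7%, against 53.7% of all genes tested. The median SD was 0.218 with dexamethasone and 0.161 with saline in the members. Over all genes it was 0.155 with dexamethasone and 0.149 with saline. An SD above 0.4 with dexamethasone was found for 6 members, IGFBP6, SFRP2, BMP4, BDNF, TGFB2 and the FGF19-like transcript. In 4 of these dexamethasone 4 was the highest sample. SFRP2 had 10.69, 9.55, 9.82 and 11.18 in dexamethasone 1 to 4, and 9.82, 10.26, 10.50 and 10.23 in saline 1 to 4. At this brightest probe dexamethasone 1 and 4, which lie on different arrays and in different dyes, were thus above every saline sample. Dexamethasone 2 and 3 were below every saline sample, dexamethasone 3 only just, at 9.818 against 9.821 in saline 1. At the other SFRP2 probes dexamethasone 1 and 4 were also above every saline sample, but dexamethasone 2 and 3 were not always below. At position 501 dexamethasone 2 and 3 had 8.41 and 8.84, against 8.33 to 8.74 with saline.

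**Figure D4:**
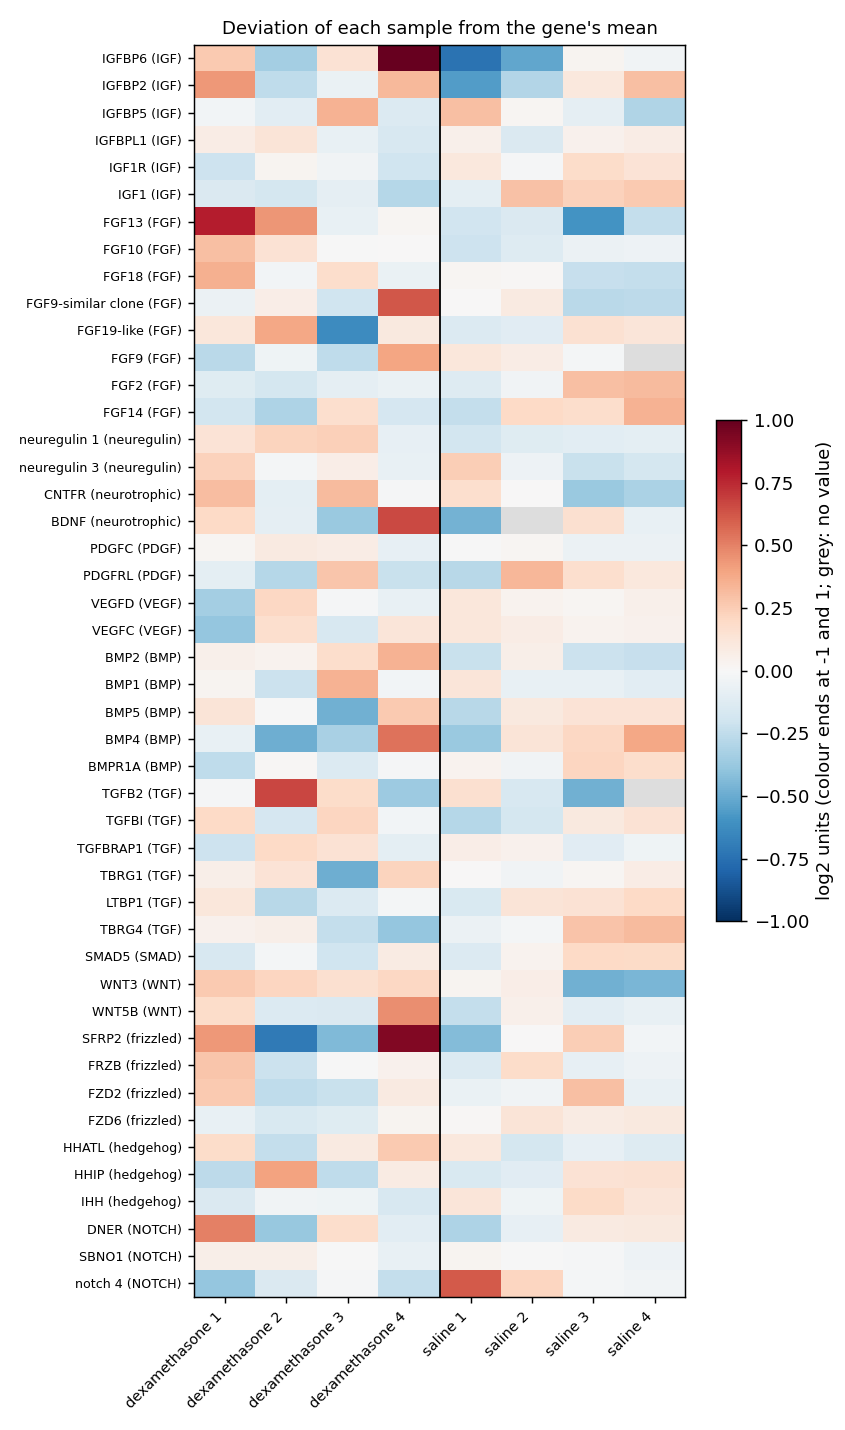
Deviation of each sample from a gene's mean over the 8 samples, in log2 units, for the 46 tested members in family order, with dexamethasone columns left of saline columns. Dexamethasone 4 is high for IGFBP6, SFRP2, BMP4, BDNF and WNT5B, and saline 3 and 4 are low together for WNT3.

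Some of the choroid plexus and ependyma markers were also high in dexamethasone 1 and 4. OTX2, a transcription factor of that tissue, had 9.76, 7.76, 8.16 and 10.44 in dexamethasone 1 to 4, and 8.39, 8.59, 9.23 and 9.31 in saline 1 to 4. FOLR1, a folate receptor, had 10.66, 9.04, 8.86 and 11.11 in dexamethasone 1 to 4, and 8.84 to 9.65 with saline. The potassium channel gene KCNJ13 had 9.92, 8.35, 8.70 and 10.52 in dexamethasone 1 to 4, and 8.31 to 9.12 with saline. These 3 were highest in dexamethasone 1 and 4, the samples where SFRP2 was highest, as was DNAI1, with 9.78, 9.50, 9.36 and 9.76 in dexamethasone 1 to 4, and 8.76 to 9.43 with saline. The remaining 2 tested markers were CCDC39 and KL. CCDC39 had 8.52, 8.32, 8.145 and 8.39 in dexamethasone 1 to 4, and 8.14 to 8.40 with saline. It was highest of all samples in dexamethasone 1, while dexamethasone 4 lay just below saline 4. KL went another way, lowest of all samples in dexamethasone 1 and below every saline sample in dexamethasone 4. Of the 14 choroid plexus and ependyma markers listed, 13 were on the array and 6 were tested, 5 with a difference above 0. Of the 6 tested, 2 had an unadjusted p under 0.05 (limma), DNAI1 on the higher side and KL, given above among the FGF genes, on the lower. That is 33.3%, against 13.9% of all genes tested, and none passed the adjusted test. The summed linear level of the 6 ran from 5592 to 9866 with dexamethasone and from 5957 to 8869 with saline. KL was the brightest of the 6 in every sample. CLIC6, AQP1, SLC4A5 and FOXJ1 were never above background. The part of choroid plexus in the values of SFRP2, IGFBP6, BMP4, BDNF, WNT5B and KL was not tested.

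**Figure D5:**
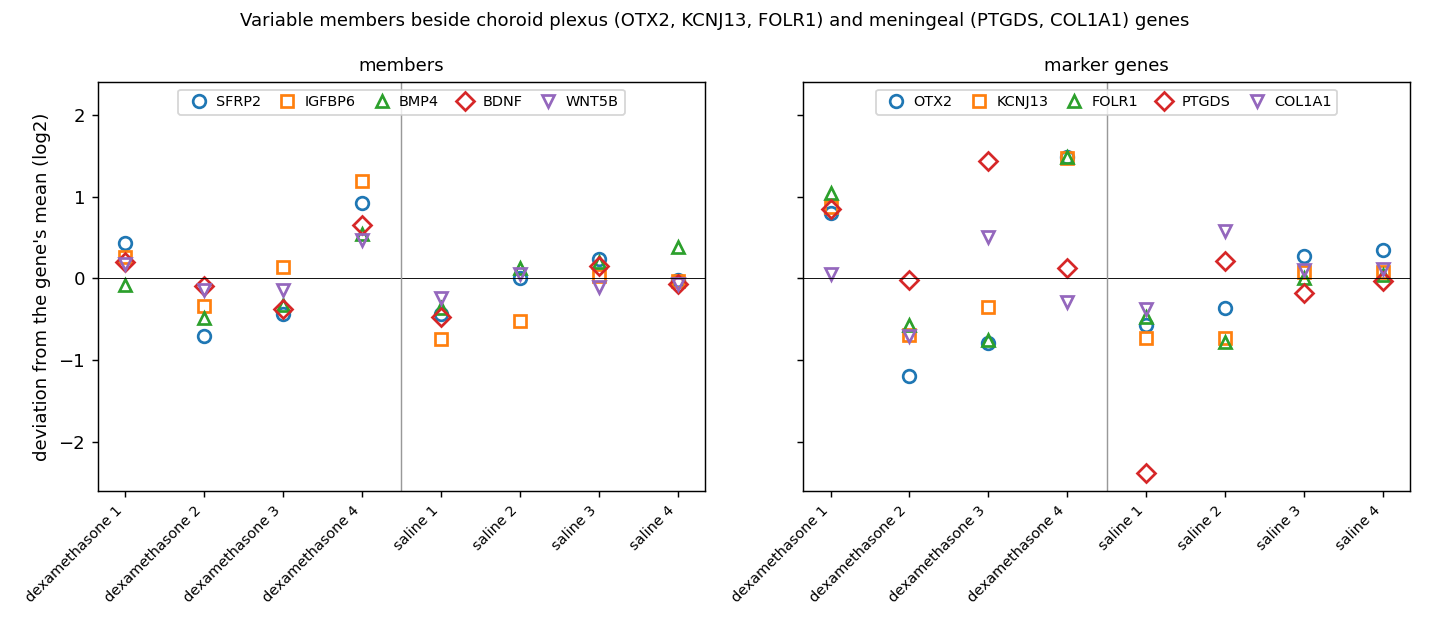
Deviation of each sample from the gene's mean, in log2 units, for 5 chosen members and for 5 marker genes of choroid plexus and meninges, with dexamethasone samples left of saline samples. WNT5B, with an SD of 0.293 with dexamethasone, is not among the 6 members with an SD above 0.4. TGFB2 and the FGF19-like transcript are among those 6 and were highest in dexamethasone 2, and are not shown. KL, which went another way, is not shown either. SFRP2 and the choroid plexus genes OTX2, KCNJ13 and FOLR1 are high in dexamethasone 1 and 4; the meningeal genes PTGDS and COL1A1 follow another order.

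Other cell types also differed between samples. Of 8 tested markers of meninges and fibroblasts, 5 had a difference above 0 and 3 below, and their summed linear level ran from 59806 to 160523 with dexamethasone and from 18449 to 83558 with saline. Of the 12 listed, 10 were on the array, and ALDH1A2 was never above background. The sum mainly followed PTGDS, which had 15.64 to 17.10 with dexamethasone and 13.28 to 15.88 with saline. The 3 differences below 0 were those of the collagen genes COL1A1 at -0.21 (SE 0.35), COL1A2 at -0.60 (SE 0.58) and COL3A1 at -0.15 (SE 0.45). Of 8 tested markers of myelinating oligodendrocytes, 6 had an unadjusted p under 0.05 (limma), 4 higher with dexamethasone and 2 lower, among them MAL at 0.51 (SE 0.16) and GJB1 at -0.64 (SE 0.15), and none passed the adjusted test. That is 75%, against 13.9% of all genes tested. The summed linear level of the 8 ran from 28442 to 33031 with dexamethasone and from 34827 to 44525 with saline. The sum followed GJB1, which had 14.12 to 14.47 with dexamethasone and 14.65 to 15.16 with saline, while 6 of the 8 differences were above 0. Of 7 tested markers of progenitors and dividing cells, 4 had an unadjusted p under 0.05 (limma) and all 4 of these were lower with dexamethasone, among them MKI67 at -0.44 (SE 0.12) and UBE2C at -0.59 (SE 0.10). That is 57.1%, against 13.9% of all genes tested, and none passed the adjusted test. The summed linear level of the 7 ran from 5908 to 7607 with dexamethasone and from 7496 to 8769 with saline. The part of these cells in the differences of IGF1, BMP2 and the other members was not tested.

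The remaining 54 members were not tested. For 28 of them no probe was well above background in any sample, for 22 a probe was so in 1 to 3 samples only, and 4 (FGF12, BMP7, BMPR2 and NENF) had a bright probe with fewer than 3 values in a group. Receptors and ligands central to these pathways were among the 28, including NOTCH2, SHH, PDGFB, PDGFRB, TGFBR1, TGFBR2, TGFB3, CNTF and FGF1. For those genes these arrays give neither a level nor a difference. NENF, a secreted neurotrophic factor, had 11.76 to 12.12 in the dexamethasone samples, against 11.51 and 11.53 in the saline samples with a value.

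In 9 untested genes every probe above background was so with dexamethasone only, and in 1, IGF2BP1, with saline only. The same count was not made over all genes. Over the whole array, too, a larger share of probes was above background with dexamethasone within each dye, so nothing is read from this count. The WNT3A probe had 11.46, 10.80, 8.15 and 7.80 in dexamethasone 1 to 4, and 7.71 to 7.80 in saline. It was 3.46-fold higher with dexamethasone by the group means. FGF6, with 9.66, 9.86, 8.21 and 7.83 in dexamethasone 1 to 4, and 7.90 to 7.96 in saline, was 1.94-fold higher by the group means. The IGF2BP1 probe had 7.64 to 7.89 with dexamethasone, against 7.71, 7.76, 11.76 and 10.696 in saline 1 to 4. It was 3.26-fold higher in saline by the group means. In WNT3A, FGF6 and IGF2BP1 the 2 bright samples were the 2 dyes of a spot on a single array, so each of these ratios rests on that array.

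GDNF, a survival factor of dopaminergic and motor neurons, showed the same pattern at 1 probe. That probe had 11.11, 10.58, 8.09 and 7.64 in dexamethasone 1 to 4, and 7.72 to 7.80 in saline, 3.01-fold higher with dexamethasone by the group means. Of the other GDNF probes none was above background with dexamethasone, and 1 was in a single saline sample. The other genes had smaller ratios of the group means, with TGFB1I1 1.65-fold, BMP10 1.26-fold, WNT8B 1.23-fold, FGFR1 1.21-fold and FGFR2 1.17-fold higher with dexamethasone. WNT2B was above background in 2 dexamethasone samples. The 5 WNT2 probes did not share a direction. By the group means 3 were 1.11-fold to 1.22-fold higher with dexamethasone, 1 had a mean of 7.83 with dexamethasone and 7.85 with saline, and 1 was never above background. BMP10 was above background in 3 dexamethasone samples, with 8.64, 8.52, 8.13 and 8.14 in dexamethasone 1 to 4, and 7.99 to 8.06 in saline. More probes were above background on the dexamethasone arrays over the whole array too, as given above by sample, and the part of this in the ratios was not tested. Each ratio is that of the group means of the log2 values, carries no SE and is not a lower limit. These genes were named because a probe was above background in a single group, so no direction is read from them.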

How the data were processed

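RNA of 8 rabbit forebrains, 4 given dexamethasone and 4 saline, was read on 4 arrays (Agilent design 020908) as Cy3 and Cy5 intensities, 2 samples of a group on each array. The scanner intensities were deposited by the authors as written by Agilent Feature Extraction, version 11.0.1.1 per the file headers and 10.7.3.1 per the submitters' processing notes. The deposited series table holds a signal per spot, with 1 as every column's median. Set against the scanner files, all its values lay within 0.1% of a rescaled intensity, so its scale and direction were settled. Steps before scanning that bear on single samples are not given in the sources used here.

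Mean intensities were corrected with normexp (offset 50), normalised by loess within arrays and Aquantile between them in limma 3.58.1 (R 4.3.3, the data.table package, version 1.17.8), and taken as log2 values per channel. Control spots were left out, as were outlier spots, 197 to 509 per dexamethasone sample and 932 to 3022 per saline sample. Every value missing in a tested member was a saline value. Missing saline values also kept FGF12, BMP7, BMPR2 and NENF from the test. Spots of a probe were averaged, a probe was kept if 4 or more of the 8 samples were well above background, and the brightest kept probe stood for its gene, if each group had at least 3 values. That gave 10782 genes from 23168 kept probes. Gene symbols were taken from RefSeq (assembly mOryCun1.1), matched to the array's annotation by gene ID, accession or name. Of the array's 43603 probes, 22299 were given a symbol in this way and 21304 were not. A gene without a symbol keeps the name that the array annotation gives it, such as a transcript ID. One linear model with treatment and dye, and with array as a random block (correlation 0.24), was fitted across all genes, with Benjamini-Hochberg adjustment over all of them. SE and 95% intervals come from this fit, and the number of arrays limits the precision. The model was also tested on simulated intensities. Of 100 genes given a log2 difference of 0.5, 15 passed the adjusted test, and of 100 given a difference of 1, 75 did. A member that did not pass is therefore not shown to be unchanged.

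Genes named in the text were those with the smallest p-values (12 on each side), those whose groups did not overlap, the smallest p and the highest level in each family, and a list of well-known members. For pathway genes outside the search they were the 2 smallest p-values per list and those whose groups did not overlap. ERBB4, CTNNB1, LRP6, HEY1, HEY2, HES1 and the remaining tested members were named after their values were seen. Some genes that these rules select are not reported here. The members and all gene lists were chosen with earlier results of these data known. Alternatives covered background correction, scaling, filters, the choice of probe, the model terms, and leaving out each sample or array; differences within each dye were added after seeing the data. Replicate numbers carry no shared animal, litter or day in the labels.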

Additional observations from a re-analysis of the deposited data

Results flagged for a closer look

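In groups with 4 values, 6 single samples stood far from the rest of their group, out of 89 such groups tested. All 6 were saline samples and none was a dexamethasone sample. About 1 in 20 groups is the chance rate for 4 independent values. Each group here is 2 arrays with 2 samples each, so that rate need not hold. Saline 3 and 4, which share an array, lay close together for BMP2 (9.604 and 9.594) and BMP5 (8.435 and 8.436), but not for FZD2 (11.081 and 10.702). IGF1 in saline 1 was 8.582, with the nearest saline sample at 8.912, and lay inside the dexamethasone range. BMP2 in saline 2 was 9.88, with the nearest at 9.604. BMP1 in saline 1 was 9.38 (nearest 9.189) and BMP5 in saline 1 was 8.02 (nearest 8.401). FZD2 in saline 3 was 11.081 (nearest 10.743), and IGFBPL1 in saline 2 was 9.092 (nearest 9.285). For IGF1 and BMP2 the distant saline sample is the one that overlapped the dexamethasone group.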

How the results depend on the processing

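Of 33 genes named with their alternatives, 18 kept their sign under every one of up to 26 alternatives run, differences within a single dye not counted, among them WNT3 (0.05 to 0.86), IGF1 (-1.19 to -0.27), FGF13 (0.27 to 1.07) and BMP2 (0.20 to 0.47). In the limma fit 7 of all genes passed the adjusted test and 0 members, with 4 members at an unadjusted p under 0.05 and a member median of 0.02. Processed signals scaled to the 75th percentile gave 15 genes, 7 members at an unadjusted p under 0.05 (15.7% of all genes) and a member median of -0.028 (all genes -0.03). Normexp values scaled to the 75th percentile gave 2213 genes (48 higher, 2165 lower), 13 members past the adjusted test, 20 of 46 at an unadjusted p under 0.05 (38.9% of all genes) and a median of -0.55 (all genes -0.30). The deposited table gave a median of 0.12 (all genes 0.13). At an unadjusted p under 0.05, no background correction gave 7 of 46 members (13.7% of all genes), no filter on dim probes 12 of 96 (12% of all genes) and the mean over kept probes 1 of 48 (14.4% of all genes). All-gene calls were 3 for probes above background in all samples, 2 with no filter, 24 with no array block, 17 with no dye term and 22 at an adjusted p under 0.1. Leaving out 1 sample gave 0 to 11 genes called (0 without any single dexamethasone sample, 11 without saline 2), 1 to 8 members at an unadjusted p under 0.05 (6.03% to 20.9% of all genes) and medians of -0.01 to 0.04. Without the array of dexamethasone 1 and 2, 0 genes passed; without that of dexamethasone 3 and 4, 1 gene passed and 1 member had an unadjusted p under 0.05 (6.39% of all genes). Without the array of saline 1 and 2, 2181 genes and 6 members passed, 16 of 44 members had an unadjusted p under 0.05 (38% of all genes) and the median was -0.065; WNT3 then had an adjusted p of 0.00524 and IGF1 of 0.0169. Without the array of saline 3 and 4, 201 genes passed and 8 of 47 members had an unadjusted p under 0.05 (21.5% of all genes). The estimated array correlation fell to -0.315 and -0.377 in these 2 fits, where all saline values come from a single array, and the cause was not tested. A correlation below 0 lowers the SE of a comparison between arrays. The SE of WNT3 was 0.07 without the array of saline 1 and 2, against 0.152 with all samples. The passes and adjusted p-values of these 2 fits are therefore not read as calls. Same-numbered samples did not deviate together (correlations of -0.07 and 0). The fit with the replicate block called 5 genes and 0 members, with 6 of 46 at an unadjusted p under 0.05 (16.9% of all genes). Dim probes limit the list, since 54 of 100 members could not be tested.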
